A study of Mus musculus with 6 samples.

Results

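The proteasome genes measured here were those whose symbol on the array begins with Psm, a letter from a to g and a number. Of 22061 named genes, 49 met this rule. Psmc3ip was set aside because it encodes a protein known from meiotic recombination rather than a proteasome subunit, which left 48 genes measured by 55 probe sets. They comprised 5 genes of the immunoproteasome and of the PA28 activator (Psmb8, Psmb9, Psmb10, Psme1 and Psme2) and 43 other subunits, activators and assembly factors. Each gene was read from its brightest probe set, and all 48 were tested, with no filter on dim genes.

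RNA came from MCT cells, a proximal tubular epithelial line from the renal cortex of SJL mice, rested in serum-free medium. One group of 3 samples received vehicle (control 1 to 3). The other group of 3 received 100 ng/mL TWEAK, a TNF superfamily cytokine that binds the receptor Fn14, for 6 h (TWEAK 1 to 3). The series describes 3 independent experiments with this single line, and Affymetrix arrays gave a log2 expression value per probe set after RMA, a background correction and normalization that makes the arrays alike.

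The proteasome is a barrel-shaped protease that degrades ubiquitin-tagged proteins. Its 20S core has outer rings of alpha subunits and inner rings of beta subunits, of which Psmb5, Psmb6 and Psmb7 carry the proteolytic sites in most cells. In cells exposed to inflammatory cytokines, newly made cores can instead take up Psmb8, Psmb9 and Psmb10, which form the immunoproteasome and change which peptides are released for loading on MHC class I. Caps bind the ends of the core: the 19S particle, built of ATPases and other subunits, admits ubiquitin-tagged proteins, and PA28, built of Psme1 and Psme2, opens the core without ubiquitin.

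The labelled cell type was checked against marker genes. Of 5 epithelial markers, 3 lay above the median probe set on all arrays (Krt8, Krt18 and Pax8), whereas Epcam and Cdh1 lay below it. Of 12 proximal tubule markers, 5 lay above the median probe set on all arrays (among them the endocytic receptor Lrp2, the glucose transporter Slc5a2 and the water channel Aqp1), whereas Slc22a6, Anpep and Gatm lay below it. Of 12 leukocyte markers, a cell class that expresses the immunoproteasome at rest, 4 lay below the lower quartile on all arrays (Ptprc, the pan-leukocyte antigen CD45, and Cd79a, Itgam and Adgre1) and 1, Cd68, lay above the median. The mean log2 level of the leukocyte list was 5.12 to 5.30 on the control arrays and 5.22 to 5.36 on the TWEAK arrays, and 0 of its 12 members passed limma's test over all genes, although 1, Cd52, was higher with p under 0.05 before adjustment. The endothelial list lay at 4.96 to 5.06 and 5.08 to 5.21, and the fibroblast and pericyte list at 5.24 to 5.36 and 5.33 to 5.44. Of the 7 fibroblast and pericyte markers, 2, Col1a1 and Col1a2, lay above the median on all arrays and 3 lay below the lower quartile. In bulk RNA such as this, fewer cells of a kind and less RNA per cell cannot be told apart.

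The promoters of 4 genes of the immunoproteasome and PA28 group are shown because the results below turn on these genes. They were taken from RefSeq (build GRCm38.p6) and run 5′ to 3′ on the strand of the gene, from 250 bases before the annotated start to 30 bases from it. Capitals mark a motif found by search: GAS (TTCNNNGAA, an interferon-gamma activated site) in Psmb8, a CCAAT box (CCAAT) in Psmb9, and an ISRE core (GAAA, any 2 bases, GAAA, which IRF factors bind) in Psme1. Psmb8 lies at chr17:34197945-34198224 on the plus strand, Psmb9 at chr17:34187301-34187580 on the minus strand, Psmb10 at chr8:105938363-105938642 on the minus strand and Psme1 at chr14:55578244-55578523 on the plus strand.
Psmb8: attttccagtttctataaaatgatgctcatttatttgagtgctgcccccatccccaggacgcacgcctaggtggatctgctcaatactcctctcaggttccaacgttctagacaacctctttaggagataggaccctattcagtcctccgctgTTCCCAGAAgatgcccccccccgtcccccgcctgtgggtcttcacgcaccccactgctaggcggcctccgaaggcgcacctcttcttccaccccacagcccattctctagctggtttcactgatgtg
Psmb9: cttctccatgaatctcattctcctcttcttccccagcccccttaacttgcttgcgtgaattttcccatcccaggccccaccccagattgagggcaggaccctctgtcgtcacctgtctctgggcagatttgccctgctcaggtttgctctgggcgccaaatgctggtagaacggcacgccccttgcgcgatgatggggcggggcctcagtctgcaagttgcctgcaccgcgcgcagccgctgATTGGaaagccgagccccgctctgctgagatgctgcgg
Psmb10: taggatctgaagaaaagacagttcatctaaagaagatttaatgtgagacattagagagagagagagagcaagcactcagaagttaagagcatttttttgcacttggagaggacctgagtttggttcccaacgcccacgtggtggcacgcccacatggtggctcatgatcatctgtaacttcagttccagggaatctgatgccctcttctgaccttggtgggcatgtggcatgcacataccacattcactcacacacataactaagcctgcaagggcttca
Psme1: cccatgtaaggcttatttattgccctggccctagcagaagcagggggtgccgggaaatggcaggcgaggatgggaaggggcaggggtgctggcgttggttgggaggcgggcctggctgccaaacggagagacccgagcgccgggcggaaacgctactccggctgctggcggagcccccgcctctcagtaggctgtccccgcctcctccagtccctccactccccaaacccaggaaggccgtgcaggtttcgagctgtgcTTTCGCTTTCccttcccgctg

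The GAS match of Psmb8 ran from base -97 to base -89, and the ISRE match of Psme1 from base 10 to base 19, counting the annotated start as base 1. The window of Psmb9 and that of the peptide transporter gene Tap1, which is transcribed the other way, shared 275 of 300 bases. In RefSeq gene order Psmb9, Tap1, Psmb8 and Tap2 follow one another on chromosome 17, inside the MHC region. Motifs were searched on both strands of the full windows of 300 bases, which RefSeq gave for 40 of the 48 genes, and no match of one motif overlapped a match of another in the windows shown. A gene was counted if any of its windows held a match, whereas the percentages below count each promoter window singly. An ISRE core was found in 5 of the 40 genes (1 of the 5 immunoproteasome and PA28 genes), against 3.44% of 32851 promoters. GAS was found in 3 of the 40, against 8.3% of promoters, and the NF-kB consensus in 1 of the 40, the 19S gene Psmd12, and in 0 of the 5, against 4.51%. The core of the antioxidant response element (TGACNNNGC), through which the factor Nfe2l1 acts on constitutive subunits, was found in 6 of the 40, among them Psmb5 and Psmb6, and in 0 of the 5, against 12.4%. A CCAAT box was found in 14 of the 40, against 37.4%. These are matches of letters, and binding was not measured.

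After TWEAK, 2 of the 48 proteasome genes rose and 0 fell, by limma's moderated test with p-values adjusted over all genes (Benjamini-Hochberg, BH, threshold 0.05). The 2 were Psmb10, which rose 2.23-fold, and Psmb8, which rose 1.67-fold, both catalytic subunits of the immunoproteasome. Of the 22061 genes, 3.00% were called, with 1.28% higher and 1.71% lower. The 2 genes make up 4.17% of the family. The 43 other genes had 0 calls, though before adjustment limma's p was under 0.05 for 3 that were higher and 9 that were lower. The median log2 difference, TWEAK minus control, was 0.36 for the 5 immunoproteasome and PA28 genes and -0.04 for the 43 others, beside 0.03 for all genes.

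Psmb10 encodes the beta subunit that replaces Psmb7 in the immunoproteasome. Its log2 values were 10.43, 10.37 and 9.95 on control 1, 2 and 3 and 11.42, 11.42 and 11.38 on TWEAK 1, 2 and 3. The groups did not overlap, the TWEAK arrays lay close together, and control 3 was the lowest of the control arrays. The group means were 10.25 ± 0.26 and 11.41 ± 0.02 (SD, n = 3 arrays per group), a difference of 1.16 (SE 0.13, limma BH-adjusted p = 0.0135). Psmb8, which replaces Psmb5, was at 6.74, 6.57 and 6.37 on the control arrays and at 7.27, 7.22 and 7.42 on the TWEAK arrays. All TWEAK arrays again lay above all control arrays. Its means were 6.56 ± 0.18 and 7.30 ± 0.10, a difference of 0.74 (SE 0.11, limma BH-adjusted p = 0.0282).

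The third immunoproteasome subunit, Psmb9, which replaces Psmb6, was at 7.82, 7.85 and 7.45 on the control arrays and at 8.00, 8.09 and 8.11 on the TWEAK arrays. Its groups did not overlap, but they differed by 0.36 only (SE 0.12), which missed the threshold (limma BH-adjusted p = 0.125). Without control 3, its lowest array, the Psmb9 difference was 0.23. Tap1, the peptide transporter subunit that shares its promoter window, was at 7.93, 8.03 and 7.84 on the control arrays and at 8.47, 8.60 and 8.54 on the TWEAK arrays. Tap1 rose by 0.60 (SE 0.09, limma BH-adjusted p = 0.0255), and its values on the TWEAK arrays all exceeded those on the control arrays. Whether the 2 differences themselves differ was not tested.

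The PA28 genes did not pass the test. Psme1, the alpha subunit, was at 10.97, 10.86 and 10.78 on the control arrays and at 11.15, 11.08 and 11.08 on the TWEAK arrays, groups that did not overlap. The Psme1 difference was 0.23 (SE 0.08, limma BH-adjusted p = 0.158). Psme2, the beta subunit, was at 11.81, 11.74 and 11.58 on the control arrays and at 11.62, 11.82 and 11.82 on the TWEAK arrays. These groups overlapped, with a difference of 0.05 (SE 0.10, limma BH-adjusted p = 0.841), and without control 3 the Psme2 difference was -0.02. A second, dimmer probe set named Psme2 was at 9.78, 10.03 and 10.00 on the control arrays and at 9.97, 10.56 and 10.37 on the TWEAK arrays, a difference of 0.36 (SE 0.16, adjusted p = 0.255 in limma over all probe sets). RefSeq also lists a near-identical copy, Psme2b, which no probe set here is named for, so the Psme2 probe sets are uncertain. In all, TWEAK arrays lay above the control arrays throughout for 4 of the 5 genes, where 12.9% of all genes did so.

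**Figure D1:**
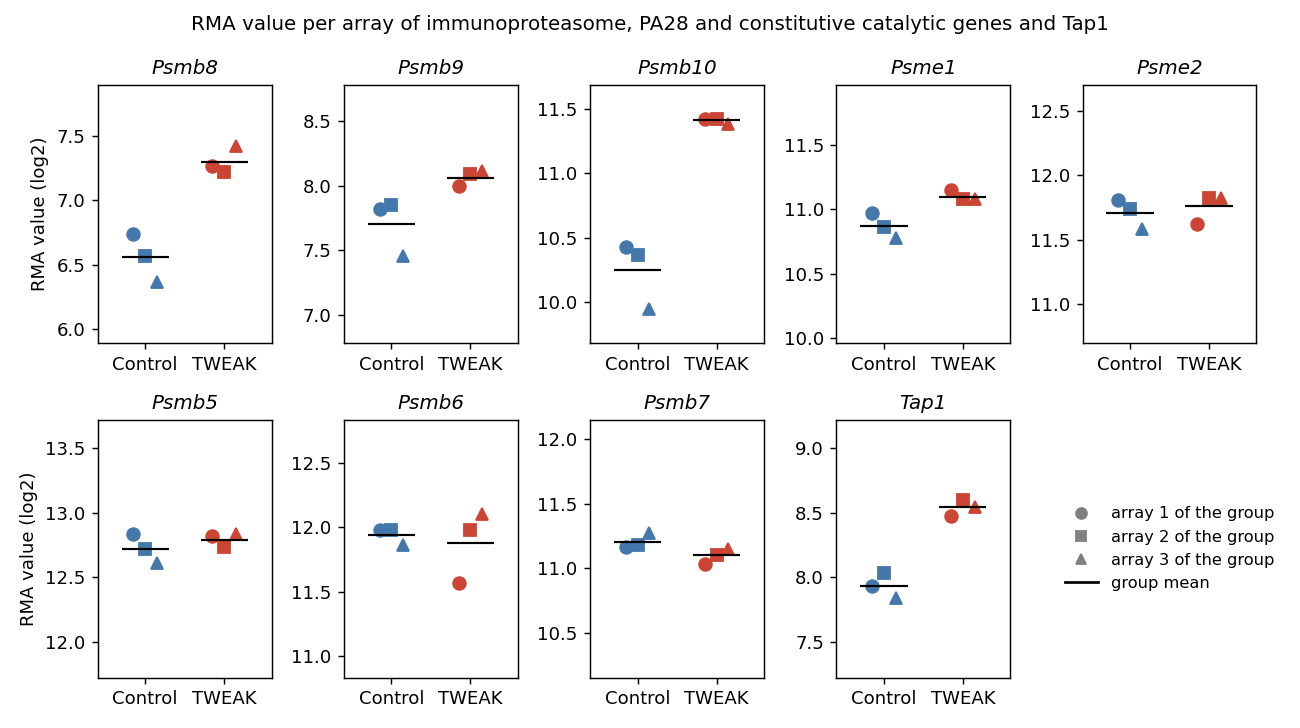
RMA values (log2, vertical axis, each panel spanning the same number of log2 units) of the 5 immunoproteasome and PA28 genes, the 3 constitutive catalytic genes and Tap1 on the 3 control (blue) and 3 TWEAK arrays (red). Symbols give the array number and lines the group means. The TWEAK arrays lie above all control arrays for Psmb8, Psmb9, Psmb10, Psme1 and Tap1, and the groups overlap for Psme2, Psmb5 and Psmb6.

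The constitutive catalytic subunits had 0 of 3 genes past the test. Psmb5, which carries the chymotrypsin-like site, was at 12.83, 12.72 and 12.61 on the control arrays and at 12.82, 12.73 and 12.83 on the TWEAK arrays. It differed by 0.08 (SE 0.09, limma BH-adjusted p = 0.693), within the range of its own control arrays. Psmb6, the caspase-like subunit, was at 11.98, 11.98 and 11.86 on the control arrays and at 11.57, 11.98 and 12.10 on the TWEAK arrays. The Psmb6 difference of -0.05 (SE 0.14, limma BH-adjusted p = 0.868) rested on TWEAK 1, and was 0.10 without that array. Psmb7, the trypsin-like subunit, was at 11.16, 11.18 and 11.27 on the control arrays and at 11.03, 11.10 and 11.15 on the TWEAK arrays. All TWEAK arrays lay below the control arrays by a small margin, with a difference of -0.11 (SE 0.08, limma BH-adjusted p = 0.509). A p that misses the threshold does not show that these genes did not change.

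Each immunoproteasome subunit was also set against the constitutive subunit whose place it takes, array by array, which removes any shift common to an array. The log2 ratio of Psmb10 to Psmb7 differed between the groups by 1.27 (SE 0.19), a 2.41-fold change. That of Psmb8 to Psmb5 differed by 0.67 (SE 0.06), or 1.59-fold, and that of Psmb9 to Psmb6 by 0.42 (SE 0.15), or 1.33-fold. For all 3 ratios every TWEAK array exceeded every control array. They are given as a description with no test. A ratio of this kind shows unequal change of the 2 genes and not that either one stayed the same.

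The same contrast was described over the whole family. Relative to each gene's control mean, the 5 immunoproteasome and PA28 genes averaged 0.13, 0.06 and -0.19 on control 1, 2 and 3 and 0.47, 0.51 and 0.54 on TWEAK 1, 2 and 3 (log2). The 43 other genes averaged -0.03, 0.01 and 0.02 on the control arrays and -0.14, -0.06 and -0.16 on the TWEAK arrays. The gap between the 2 averages was 0.17, 0.05 and -0.22 on the control arrays and 0.62, 0.57 and 0.71 on the TWEAK arrays, so the TWEAK arrays did not overlap the control arrays. The gap was lowest on control 3. On the TWEAK arrays the medians of the 2 sets lay closer together than these averages. On TWEAK 1, 2 and 3 the median was 0.29, 0.39 and 0.40 for the 5 genes. For the 43 others it was -0.09, 0.01 and 0.04.

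**Figure D2:**
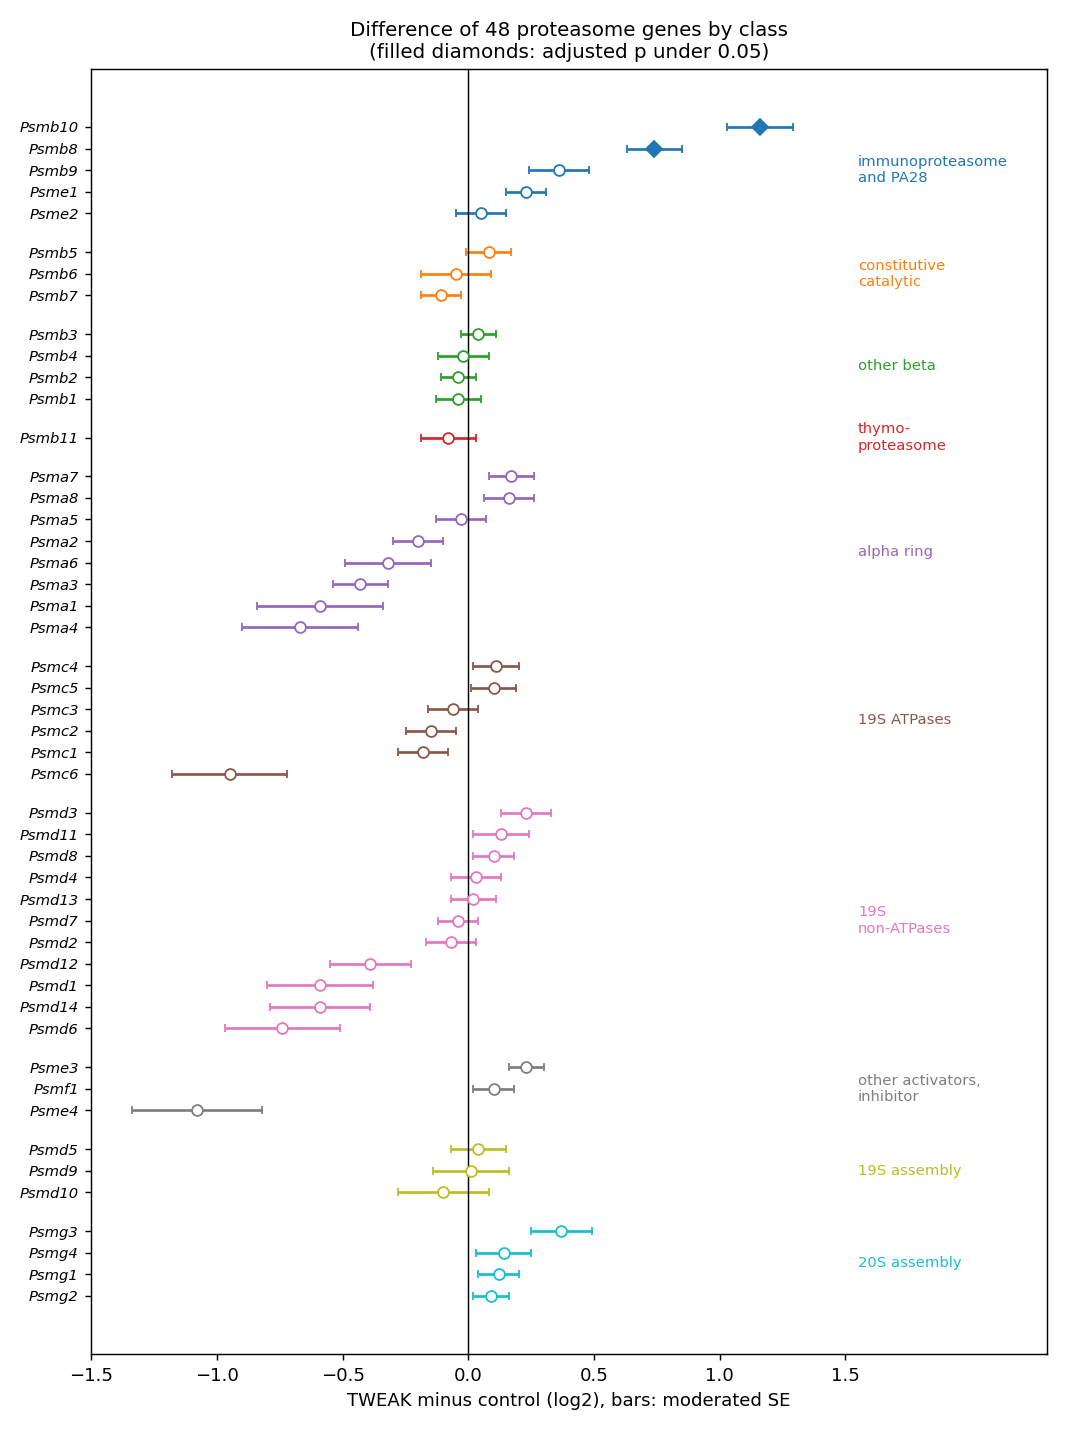
Log2 difference, TWEAK minus control (horizontal axis), of the 48 proteasome genes ordered within classes, with bars for limma's moderated SE. Filled diamonds mark the genes with an adjusted p under 0.05, which are Psmb10 and Psmb8. The largest negative differences are those of Psme4 (-1.08) and Psmc6 (-0.95), which did not pass the test.

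The other subunits of the 20S core, which build the barrel, had 0 calls in either direction. Among the 4 non-catalytic beta genes, Psmb1 to Psmb4, differences lay between -0.04 and 0.04. The 8 alpha ring genes, which form the gate of the barrel, lay between -0.67 and 0.17 with a median of -0.26. At an unadjusted p under 0.05, 3 of them (37.5%) were lower and 0 higher, beside 13.1% and 8.15% of all genes. Psma3 had the smallest p of these. It was at 10.81, 10.90 and 11.17 on the control arrays and at 10.46, 10.58 and 10.56 on the TWEAK arrays, which did not overlap. The Psma3 difference was -0.43 (SE 0.11, limma BH-adjusted p = 0.0711), and its other probe sets gave -0.41 and -0.48. Psma8, an alpha subunit known from testis, lay between 4.05 and 4.45 on all arrays, and Psmb11, the catalytic subunit of the thymus, between 4.77 and 5.10. The lower quartile of the arrays was 4.65 to 4.73 and the median 6.12 to 6.18, so both genes were dim and changes in them could go unseen.

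Among the 6 ATPases of the 19S particle, which unfold substrates, 5 differed by between -0.18 and 0.11. The sixth, Psmc6, was at 8.04, 8.19 and 8.99 on the control arrays and at 7.32, 7.61 and 7.43 on the TWEAK arrays. All TWEAK values were lower, but control 3 stood well above the other control arrays. The Psmc6 difference was -0.95 (SE 0.23, limma BH-adjusted p = 0.0622), and -0.66 without control 3. The 11 non-ATPase subunits of the 19S particle, which include ubiquitin receptors and the deubiquitinase Psmd14, lay between -0.74 and 0.23. Before adjustment p was under 0.05 for 1 on the higher side (9.09%) and 4 on the lower (36.4%). For all genes these shares were 8.15% and 13.1%. Psmd6, a scaffold subunit, was at 9.02, 9.51 and 9.53 on the control arrays and at 8.45, 9.10 and 8.27 on the TWEAK arrays, overlapping groups that differed by -0.74 (SE 0.23, limma BH-adjusted p = 0.104). Psmd3, another scaffold subunit, differed by 0.23 (SE 0.10, limma BH-adjusted p = 0.222).

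Psme4 encodes PA200, an activator that opens the core without ubiquitin. It was at 7.64, 8.35 and 8.67 on the control arrays and at 7.08, 7.49 and 6.84 on the TWEAK arrays. No TWEAK array reached a control array, and both groups were widely spread. The Psme4 difference was -1.08 (SE 0.26, limma BH-adjusted p = 0.0638). Psme3, the nuclear PA28 gamma subunit, stood out for its small spread, with 11.27, 11.28 and 11.32 on the control arrays and 11.52, 11.55 and 11.47 on the TWEAK arrays. The Psme3 groups did not overlap and differed by 0.23 (SE 0.07, limma BH-adjusted p = 0.128), as much as Psme1. The inhibitor gene Psmf1 (PI31) differed by 0.10 (SE 0.08, limma BH-adjusted p = 0.519).

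Assembly factors had 0 calls. The 4 chaperones of the 20S core, Psmg1 to Psmg4, all had positive differences, between 0.09 and 0.37. Psmg3 was the highest, at 8.11, 7.95 and 7.79 on the control arrays and 8.29, 8.17 and 8.49 on the TWEAK arrays. The Psmg3 groups did not overlap and differed by 0.37 (SE 0.12, limma BH-adjusted p = 0.120). The 3 chaperones of the 19S base, Psmd5, Psmd9 and Psmd10, lay between -0.10 and 0.04.

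Over the 48 genes, TWEAK arrays lay wholly above the control arrays for 9 and wholly below for 9, that is 18.8% each way, beside 12.9% and 13.5% of all genes. Before adjustment, limma's p was under 0.05 for 7 genes on the higher side (14.6%) and 9 on the lower (18.8%), beside 8.15% and 13.1%. Among the 43 other genes alone, 6.98% were higher and 20.9% lower at that p, and 11.6% lay wholly above and 20.9% wholly below. On the higher side these shares lay below those of all genes. In the immunoproteasome and PA28 group 4 of 5 genes were higher by either measure. The 43 others held 3 of the 7 genes higher at that p and 5 of the 9 wholly above. The lower genes were not called. The 9 lower genes, Psma1, Psma3, Psma4, Psmc6, Psmd1, Psmd6, Psmd12, Psmd14 and Psme4, also differed between arrays of a group. All 9 had a higher value on control 3 than on control 1, which holds for 89.9% of all genes lower at that p and for 37.9% of all genes. The 5 immunoproteasome and PA28 genes went the opposite way between these arrays. All 5 had a lower value on control 3 than on control 1, with control 3 minus control 1 from -0.48 to -0.19. Their median difference between the groups was 0.36 with all arrays and 0.23 without control 3. TWEAK 3 was the lowest TWEAK array for 7 of the 9, against 61.9% of all genes lower at that p and 32.5% of all genes. Relative to each gene's control mean, these 9 averaged -0.30, 0.02 and 0.28 on control 1, 2 and 3 and -0.59, -0.42 and -0.99 on TWEAK 1, 2 and 3. The part of array differences in these values was not tested.

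**Figure D3:**
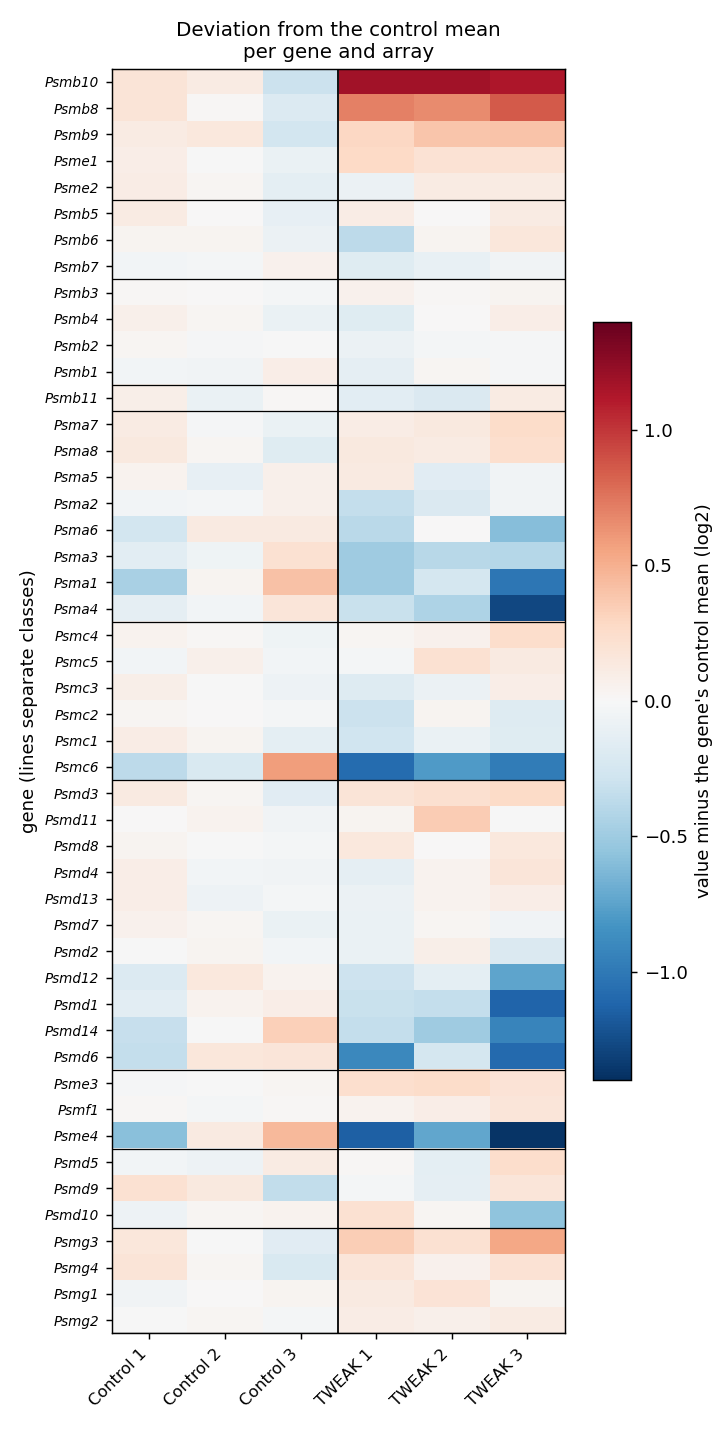
Colour gives the log2 value of each of the 48 genes (rows, in classes separated by lines) on each array (columns) minus the gene's mean over the control arrays. Psmb10 and Psmb8 are raised on all TWEAK arrays. Both sets differ between control 1 and control 3, in opposite directions. Control 3 minus control 1 is -0.48 for Psmb10 and -0.37 for Psmb8. The 9 genes with lower values, such as Psmc6 (0.95) and Psme4 (1.04), are higher on control 3.

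Calls depended on single arrays more than sizes did. Both calls were lost without control 2, TWEAK 1 or TWEAK 3, where limma called 16, 1 and 38 of all genes, and without control 3 Psmb10 alone was called. Without TWEAK 2 both were called, and without control 1, when 1876 of all genes were called, Psmb10 and Psmb8 were joined by Psma3, Psmc6, Psmd6 and Psme4 as lower genes. The difference of Psmb10 stayed between 1.01 and 1.25 and that of Psmb8 between 0.65 and 0.83 with any 1 array left out, and their unadjusted p in limma was at most 1.89e-04 and 9.45e-04. The authors' deposited table, which adjusts over all probe sets, gives Psmb10 a false discovery rate of 0.0334 and Psmb8 one of 0.0553.

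**Figure D4:**
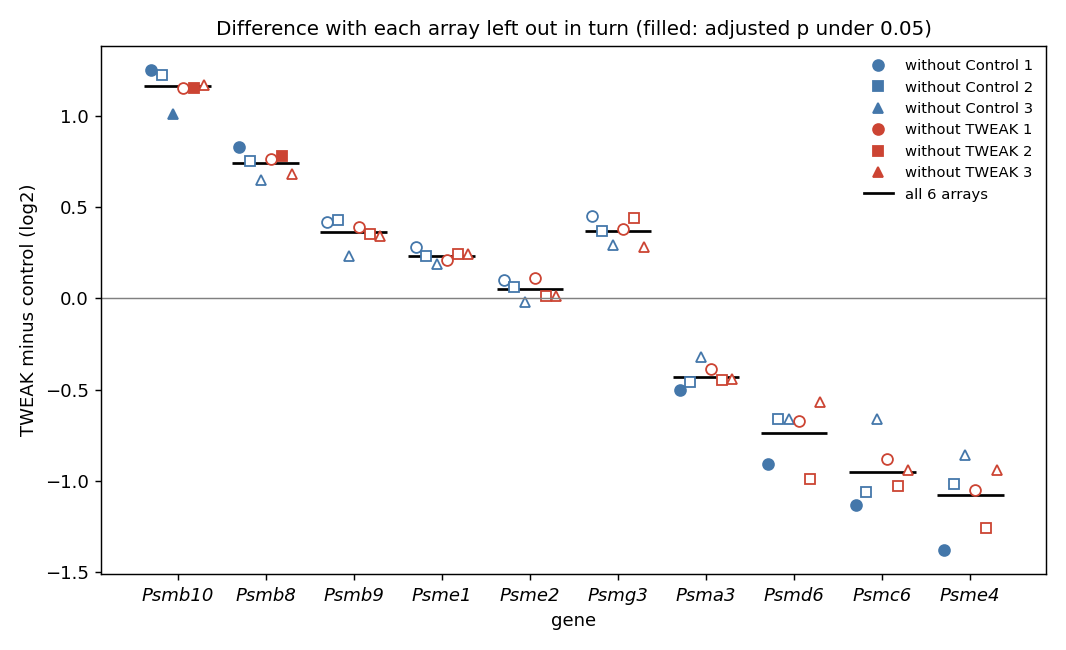
Log2 difference, TWEAK minus control (vertical axis), of 10 proteasome genes with all 6 arrays (line) and with each array left out in turn (symbols, filled where the adjusted p was under 0.05). Psmb10 stays between 1.01 and 1.25 and Psmb8 between 0.65 and 0.83, whereas Psmc6 ranges from -1.13 to -0.66 and Psme4 from -1.38 to -0.86.

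Genes that work with the proteasome were described as lists. Transcription factors chosen as possible regulators of the immunoproteasome genes had 4 of 13 members called higher and 0 lower, beside 1.28% and 1.71% of all genes. Their median difference was 0.13, and whether they act on these genes here was not tested. Before adjustment p was under 0.05 for 6 on the higher side (46.2%) and 1 on the lower (7.69%). The shares over all genes were 8.15% and 13.1%. The lower one was the NF-kB subunit gene Rel, which is named here after its value was seen. Rel differed by -0.48 (SE 0.17) without passing the test. Irf1, which binds ISRE motifs, was at 9.73, 9.66 and 9.50 on the control arrays and at 10.44, 10.56 and 10.48 on the TWEAK arrays. These groups were well apart, and Irf1 rose by 0.87 (SE 0.09, limma BH-adjusted p = 0.0112). The NF-kB subunit genes Nfkb2, Relb and Rela rose by 1.13 (SE 0.10), 0.99 (SE 0.16) and 0.44 (SE 0.09), with limma BH-adjusted p of 0.00582, 0.0337 and 0.0443. Nlrc5, the class I transactivator, differed by 0.04 (SE 0.12, limma BH-adjusted p = 0.906) on the brightest of its 19 probe sets. With all probe sets tested, Irf1 and Nfkb2 kept their calls. Leaving out TWEAK 1 ended all 4 calls, leaving out control 2 kept Nfkb2 alone, and leaving out control 3 or TWEAK 3 kept Irf1 and Nfkb2.

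Interferons and their receptors had 0 of 6 members called. Before adjustment p was under 0.05 in limma for 1 on the higher side (16.7%) and 0 on the lower, beside 8.15% and 13.1% of all genes. This 1 was the receptor gene Ifngr1, which differed by 0.40 (SE 0.12, limma BH-adjusted p = 0.0983). The ligand genes Ifng and Ifnb1, named here after their values were seen, differed by 0.07 (SE 0.10) and -0.08 (SE 0.09), and lay at 5.18 ± 0.14 and 4.47 ± 0.12 on the control arrays and 5.25 ± 0.08 and 4.40 ± 0.08 on the TWEAK arrays (SD, n = 3), below the median probe set. Genes that load peptides on class I molecules had 5 of 11 members called higher and 0 lower (median difference 0.36), beside 1.28% and 1.71% of all genes. The 1 member with p under 0.05 on the lower side before adjustment, the chaperone gene Pdia3, is likewise named after its value was seen and differed by -0.38 (SE 0.16, limma BH-adjusted p = 0.220). Beside Tap1, these were the transporter subunit Tap2 (0.70, SE 0.09), the loading protein Tapbp (0.56, SE 0.08), the peptide editor Tapbpl (1.09, SE 0.11) and the class I heavy chain H2-K1 (0.56, SE 0.09), with limma BH-adjusted p between 0.00824 and 0.0330. H2-K1 has close copies in the genome, which makes its value uncertain. All 5 calls ended when control 2 or TWEAK 1 was left out, Tapbpl alone kept its call when control 3 or TWEAK 3 was, and 3 were called without TWEAK 2.

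Factors chosen as possible regulators of constitutive proteasome genes had 1 of 10 members called higher and 0 lower, beside 1.28% and 1.71% of all genes. The called member was the small MAF protein Maff, which rose by 1.19 (SE 0.19, limma BH-adjusted p = 0.0334). Maff was not called without control 2, control 3, TWEAK 1 or TWEAK 3, or with all probe sets tested (adjusted p = 0.0591 in limma). Before adjustment p was under 0.05 on the lower side for 2 of the 10 members, beside 13.1% of all genes. These 2 are named after their values were seen. Nfyb, a subunit of the CCAAT-binding factor, differed by -0.78 (SE 0.18, limma BH-adjusted p = 0.0602), and passed the test as lower with trend and robust settings, among brighter genes and without control 1. Nfe2l2, which drives antioxidant genes, differed by -0.29 (SE 0.11, limma BH-adjusted p = 0.168). Nfe2l1, the factor that raises all subunits together when proteasomes are blocked, differed by 0.17 (SE 0.09, limma BH-adjusted p = 0.319). Of 10 measured proteasome partners outside the Psm names, 0 were called and 5 were lower at an unadjusted p under 0.05, beside 13.1% of all genes, with a median of -0.37. Control 3 lay above control 1 for 7 of the 10, and TWEAK 3 was the lowest TWEAK array for 6 of the 10, as it was for 32.5% of all genes. The part of array differences in this list was not tested either. The proteasome-bound deubiquitinase Usp14 differed by -0.37 (SE 0.11) and the ubiquitin-binding activator Zfand5 by -0.54 (SE 0.16), with limma BH-adjusted p of 0.0939 and 0.0984. Both were called without control 1. Ubiquitin shuttles and the segregase that extracts tagged proteins had 0 of 10 called, with 2 lower at an unadjusted p under 0.05: Ufd1, a cofactor of the segregase, at -0.29 (SE 0.09), and the deglycosylase Ngly1 at -0.29 (SE 0.12). The limma BH-adjusted p was 0.113 for Ufd1 and 0.216 for Ngly1. The 5 ubiquitin and E1 genes had 0 calls, 0 at an unadjusted p under 0.05 in limma, and differences between -0.19 and 0.08.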

How the data were processed

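RNA of 6 MCT samples, 3 control and 3 TWEAK by their titles, was prepared by Trizol extraction and GeneChip WT PLUS labelling (labels' protocols). The authors deposited log2 values per probe set from RMA, run with Expression Console according to the submitters' processing notes. For its version and annotation release, nothing is given in the sources used here. Making arrays alike hides a change common to most genes. The deposited workbook and series values were the same (largest difference 1.78e-15). The deposited ratio was made by the authors as the mean of unlogged TWEAK values over that of control values, as recomputing it showed. The deposited p-value and FDR were made by the authors with a test equal to limma's over all 28361 probe sets, as recomputing them showed.

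Symbols were updated through RefSeq (GRCm38.p6) where matched, 22115 probe sets by accession, 1815 by symbol and 625 by synonym. The brightest probe set stood for each of 22061 genes. Differences were tested with limma 3.58.1 (lmFit, eBayes, no replicate block) in R 4.3.3, adjusted over all genes by Benjamini-Hochberg at 0.05, and the code was tested on simulated data. Tables and figures used Python 3.11.15, pandas 2.3.3 and matplotlib 3.10.9. Members and lists were chosen with earlier results of these data known. Genes were named by rule: the 5, their constitutive counterparts and Tap1, called genes, the smallest p under 0.05 per class and direction, for each list its called genes or otherwise up to 2 with the smallest p under 0.05, and 6 chosen transcription factors. Some results are not reported here. Paaf1 and Psmd15 were not analysed here. Alternatives are in the closing section. P-values measure the spread between these arrays, and their number limits the precision.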

Additional observations from a re-analysis of the deposited data

How the results depend on the processing

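Psmb10 and Psmb8 were higher in all 13 alternatives, which reuse the same arrays. Several of these leave the 2 differences unchanged by construction, so the shared sign adds little. Psmb10 was called in 10 of the 13 and Psmb8 in 7. The count of proteasome genes called, 2, was 4 with trend and robust settings and 4 among genes brighter than the median gene, with Psmc6 and Psme4 added as lower genes, so that the count among the 43 others was 2 in both. It was 1, Psmb10, with all probe sets tested, and the same for the 5 genes (1). A replicate block also gave 1 in the 48 and 1 in the 5. Leaving out 1 array gave 0 to 6 in the 48, 0 to 2 in the 5 and 0 to 4 in the 43. Calls over all genes, 661, were 103 with all probe sets tested, 267 after cyclic loess, 1020 among the brighter genes, 207 with a replicate block and 1 to 1876 with 1 array left out. The median of the 5 genes stayed between 0.23 (without control 3) and 0.43. That of the 43 others was -0.02 with arrays centred on their medians and -0.07 to 0.01 with 1 array left out. With 1 array left out the differences of Psme2 ranged from -0.02 to 0.11, of Psmb6 from -0.16 to 0.10 and of Nlrc5 from -0.06 to 0.13, crossing 0. Deviations of same-numbered arrays correlated at r = 0.196, 0.359 and -0.072, so the replicate numbers are not shown to pair the arrays. With them as a block the differences were unchanged in size by construction, Psmb10 had an adjusted p of 0.0315 and Psmb8 one of 0.0609 in limma, and calls numbered 2 (Irf1, Nfkb2) among the immunoproteasome factors and 3 (Tap1, Tap2, Tapbpl) among the class I loading genes. The cause of these changes was not tested, beyond the fewer arrays or other sets of genes that the alternatives use. The 3 arrays per group limit what can be called, and Psma8 and Psmb11 were dim.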
